A study of Mus musculus with 11 samples.

Results

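The enzymes and regulators of fatty acid and cholesterol synthesis, together with the liver X receptors (LXR) and 2 of their transporter targets, were followed in mammary tumours of mice that carry the Neu oncogene. The set holds 33 genes, chosen by name for their function: 17 genes of fatty acid and glyceride synthesis, 12 of sterol synthesis and 4 of the LXR pathway. Of these, 32 were measured among the 19087 genes of the DMBA table and 31 among the 16887 genes of the untreated table. Nr1h2 was matched in neither table and Gpam was not matched in the untreated table, by symbol, gene identifier or accession, so they are named only.

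RNA came from 5 tumours of MMTV-Neu+/- mice given dimethylbenzanthracene (DMBA), a polycyclic aromatic hydrocarbon used as a chemical carcinogen, and from 6 tumours of untreated MMTV-Neu+/- mice. All 11 tumours therefore carry the same transgene, which the mouse mammary tumour virus promoter expresses mainly in mammary epithelium. The labels give neither ages nor a DMBA dose. Whether each tumour is from a mouse of its own is not stated either, and p-values rest on a spread between samples that may be technical. Each tumour was hybridised on a 2-colour array against a common whole mouse reference RNA, and the value is a log2 ratio of tumour over reference: 0 means an equal signal and 1 means a 2-fold higher signal in the tumour.

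The labels do not name the dye of the tumour channel, so the direction was read from genes of liver, skeletal muscle and brain, whose median ratios were below 0 on every array; this direction is likely, and every sign rests on it. Arrays of DMBA-treated tumours correlated with each other at 0.789 to 0.856 across genes, and arrays of untreated tumours at 0.886 to 0.941. The labelled tissue was checked with 9 luminal epithelial genes such as Epcam and Krt8: 8 were higher than the reference in the DMBA-treated tumours (median 2.56) and 8 in the untreated tumours (median 1.90). The exception differed. In DMBA-treated tumours it was Cdh1, at -0.13 ± 1.19 (mean ± SD), beside 0.42 ± 0.31 in untreated tumours. In untreated tumours it was Esrp1, at -0.14 ± 0.43, beside 3.13 ± 0.13 in DMBA-treated tumours. All DMBA arrays lie in a table of their own, made on another array design than the untreated arrays, so DMBA treatment and array design cannot be told apart; the groups are set side by side with no test between them.

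Lipid synthesis in mammals is controlled by the sterol regulatory element binding proteins, membrane-bound transcription factors that the escort protein SCAP carries out of the endoplasmic reticulum when sterols are low and that INSIG proteins retain there when sterols are high. Srebf1 encodes the form linked mainly to fatty acid genes, and Srebf2 the form linked mainly to cholesterol genes. LXRs are nuclear receptors for oxysterols that raise sterol export and Srebf1 transcription. In the mammary gland, fatty acid synthesis is a hallmark of the milk-secreting epithelium.

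Promoter windows from RefSeq, build GRCm38.p6, were listed for 26 of the 33 genes, as 34 windows of 300 bases that run from 250 bases before a transcription start to 50 after it. Both strands were searched. The sterol regulatory element TCACNCCAC lay in the window of 1 of the 26 genes, Hmgcs1 (3.85%), beside 1.44% of all 27025 genes with a window. The E-box CACGTG, which reads the same on both strands, lay in 4 of them, Abca1, Dhcr7, Elovl5 and Insig1 (15.4%), beside 8.09% of all genes. The short CCAAT box was in 19 (73.1%), beside 41.1% of all genes; it was in all 9 sterol genes with a window, in 10 of 14 fatty acid genes and in 0 of 3 LXR genes. The LXR response element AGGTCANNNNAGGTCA was in 0 of the 26 genes and in 4 of all genes. A looser form of it was also in 0 of the 26 and in 26 of all genes. Such a match describes letters in a window, and its absence says only that these letters are not there.

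The 250 bases before the start are shown for 4 sterol genes: Hmgcs1 (chr13:119690101-119690350, + strand), because it alone held the sterol regulatory element, and Insig1 (chr5:28071162-28071411, + strand), Idi1 (chr13:8885356-8885605, + strand) and Cyp51 (chr5:4104698-4104947, - strand), because 1 DMBA-treated tumour stood farthest above its group in these genes. Each is written 5′ to 3′ along the gene's strand. Capitals mark the sterol regulatory element TCACCCCAC in Hmgcs1, the E-box CACGTG in Insig1, and the CCAAT box, written ATTGG where it lies on the opposite strand. None of the marked motifs overlap.
Hmgcs1: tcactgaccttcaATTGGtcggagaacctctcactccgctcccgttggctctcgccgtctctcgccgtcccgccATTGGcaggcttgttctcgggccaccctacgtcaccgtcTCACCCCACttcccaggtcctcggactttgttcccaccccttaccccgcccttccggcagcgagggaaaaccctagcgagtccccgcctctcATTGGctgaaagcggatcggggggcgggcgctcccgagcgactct
Insig1: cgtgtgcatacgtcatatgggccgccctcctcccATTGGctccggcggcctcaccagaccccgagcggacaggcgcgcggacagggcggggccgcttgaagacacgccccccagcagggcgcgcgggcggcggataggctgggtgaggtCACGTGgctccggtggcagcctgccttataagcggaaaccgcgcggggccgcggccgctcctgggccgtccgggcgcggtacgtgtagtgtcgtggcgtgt
Idi1: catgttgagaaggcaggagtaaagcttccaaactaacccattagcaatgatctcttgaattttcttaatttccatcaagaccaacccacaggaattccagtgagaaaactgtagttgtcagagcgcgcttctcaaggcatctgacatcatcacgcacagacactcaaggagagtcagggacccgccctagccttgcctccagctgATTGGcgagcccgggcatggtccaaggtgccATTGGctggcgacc
Cyp51: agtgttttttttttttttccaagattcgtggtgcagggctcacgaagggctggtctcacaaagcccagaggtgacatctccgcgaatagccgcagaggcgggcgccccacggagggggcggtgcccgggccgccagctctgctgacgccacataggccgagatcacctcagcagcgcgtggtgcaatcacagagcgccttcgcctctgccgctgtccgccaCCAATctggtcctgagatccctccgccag

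In the DMBA-treated tumours, 11 of the 32 measured genes were higher than the reference, 11 were lower and 10 did not pass the test (limma against a ratio of 0, Benjamini-Hochberg adjusted p under 0.05 over all genes of the table). That is 68.8% called, where 57.8% of all genes were called, 26.1% higher and 31.7% lower. In the untreated tumours, 13 of 31 were higher, 8 were lower and 10 did not pass, which is 67.7% called where 60.9% of all genes were called, 28.8% higher and 32.1% lower. These shares lie near those of all genes, so the number of calls sets the lipid genes as a whole little apart. Both groups were measured against the same reference RNA, so their calls are not independent of each other. Because the samples are bulk tissue, fewer cells of a type and less RNA per cell cannot be told apart.

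Differences of at least 2-fold from the reference were found for 13 genes in the DMBA-treated tumours. The 6 higher genes were Me1, Srebf1, Scd1, Abcg1, Dhcr7 and Lss (18.8% of the 32, beside 8.28% of all genes), and the 7 lower genes were Hmgcs1, Nr1h3, Fads1, Acacb, Elovl6, Fads2 and Abca1 (21.9%, beside 18.8% of all genes). Lss lay at the limit of 2-fold and was under it without DMBA 1 (0.99) or DMBA 5 (0.87) and with quantile normalization (0.99), and its 3 features ran from 0.11 to 1.44. Without DMBA 4, Elovl6 (-0.99) and Abca1 (-0.96) were also under 2-fold, and without DMBA 5 so were Fads1 (-0.995) and Abca1 (-0.79). In the untreated tumours, 4 genes were higher by at least 2-fold, Me1, Srebf1, Abcg1 and Dhcr7 (12.9% of the 31, beside 6.8% of all genes), and 4 were lower, Acacb, Hmgcs1, Fads1 and Fdft1 (12.9%, beside 15.6% of all genes). Fdft1 was under 2-fold without untreated 2, 3 or 5 (-0.96 to -0.92). Scd2 joined the higher genes without untreated 1, and without untreated 3 Scd2 and Insig1 joined the higher genes and Elovl6 the lower genes.

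Among the regulators of fatty acid synthesis, Srebf1 stood far above the reference. Its log2 ratios in DMBA-treated tumours 1 to 5 were 2.85, 2.80, 3.13, 2.58 and 2.38, and in the untreated tumours they ran from 2.19 through a median of 2.62 to 2.83. The mean was 2.75 ± 0.28 in DMBA-treated tumours (SD, n = 5, 6.73-fold, limma adjusted p = 4.45e-06) and 2.59 ± 0.23 in untreated tumours (SD, n = 6, 6.02-fold, limma adjusted p = 2.84e-08). Every tumour was high and the groups overlapped. The mean lay at percentile 99.1 of all genes in the DMBA table and at percentile 99.3 in the untreated table. Thrsp, a nuclear protein linked to lipogenic gene expression in liver and mammary gland, was lower, at -0.45 ± 0.27 in DMBA-treated tumours (limma adjusted p = 0.0206) and -0.69 ± 0.66 in untreated tumours (limma adjusted p = 0.0202). Both Thrsp calls were lost when some single tumours were left out, with adjusted p of 0.0532 and 0.0609 without DMBA 4 and DMBA 3 and of 0.0538 to 0.0604 without untreated 6, 5 or 3.

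Malic enzyme Me1, which supplies cytosolic NADPH, was the other gene of this height. Its ratios were 3.06, 3.29, 2.79, 2.63 and 3.08 in DMBA-treated tumours 1 to 5, and 2.43, 2.68 and 3.35 as lowest, median and highest in the untreated tumours. The mean was 2.97 ± 0.26 in DMBA-treated tumours (7.84-fold, limma adjusted p = 2.62e-06) and 2.76 ± 0.31 in untreated tumours (6.77-fold, limma adjusted p = 5.74e-08). All 11 tumours were high, with overlapping groups.

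The enzymes that make palmitate from citrate or acetate were much nearer to the reference. Fasn, the fatty acid synthase, had ratios of 0.86, 0.93, 0.44, 0.64 and -0.02 in DMBA-treated tumours 1 to 5 and of 0.19 to 1.02 with a median of 0.76 in untreated tumours. Its mean was 0.57 ± 0.38 in DMBA-treated tumours (limma adjusted p = 0.0190) and 0.70 ± 0.30 in untreated tumours (limma adjusted p = 0.000703). DMBA 5 alone lay at the reference. The DMBA call was lost without DMBA 1, 2 or 4, with adjusted p of 0.0576 to 0.0626. Acly, ATP citrate lyase, averaged 0.64 ± 0.57 in DMBA-treated tumours and 0.40 ± 0.32 in untreated tumours, with limma adjusted p of 0.0377 for DMBA and 0.0196 for untreated. Acly was high in DMBA 2 and DMBA 5, at 1.22 and 1.29, and between 0.19 and 0.26 in the other 3, and the call was lost without DMBA 2 (adjusted p = 0.110) or DMBA 5 (adjusted p = 0.0994) and without untreated 2, 4, 5 or 6 (adjusted p of 0.0504 to 0.0589). Acss2, which activates acetate, did not pass the test, at -0.21 in DMBA-treated tumours (95% interval -0.58 to 0.15) and -0.20 in untreated tumours (95% interval -0.46 to 0.07); without untreated 6 it passed as lower, at -0.29 (adjusted p = 0.0451).

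The acetyl-CoA carboxylases, which make malonyl-CoA, differed from each other. Acaca, the cytosolic form, had ratios of 0.45, 0.69, 0.12, 0.37 and 0.45 in DMBA-treated tumours 1 to 5 and of -1.12 to -0.32 with a median of -0.71 in untreated tumours. Its mean was 0.42 ± 0.20 in DMBA-treated tumours (limma adjusted p = 0.0166) and -0.66 ± 0.29 in untreated tumours (limma adjusted p = 0.000875). As averages over features, the groups did not overlap and had opposite signs in every tumour. The feature means of Acaca ran from -0.15 to 0.86 over 5 features in the DMBA table and were -1.17 and -0.16 for the 2 features in the untreated table; the DMBA call was lost without DMBA 1 (adjusted p = 0.0520), and the untreated call was lost when only the first feature was used (adjusted p = 0.337). Acacb, the form at the mitochondrial membrane, had ratios of -0.84, -1.35, -1.18, -1.64 and -0.69 in DMBA-treated tumours and of -3.06 to -1.32 with a median of -2.41 in untreated tumours. It averaged -1.14 ± 0.38 in DMBA-treated tumours and -2.27 ± 0.71 in untreated tumours, with limma adjusted p of 0.000802 for DMBA and 2.29e-05 for untreated. Its 2 features in the DMBA table gave -2.45 and 0.17, and the accession found in both tables gave -2.45 in DMBA-treated tumours beside -2.27 in untreated tumours.

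**Figure D1:**
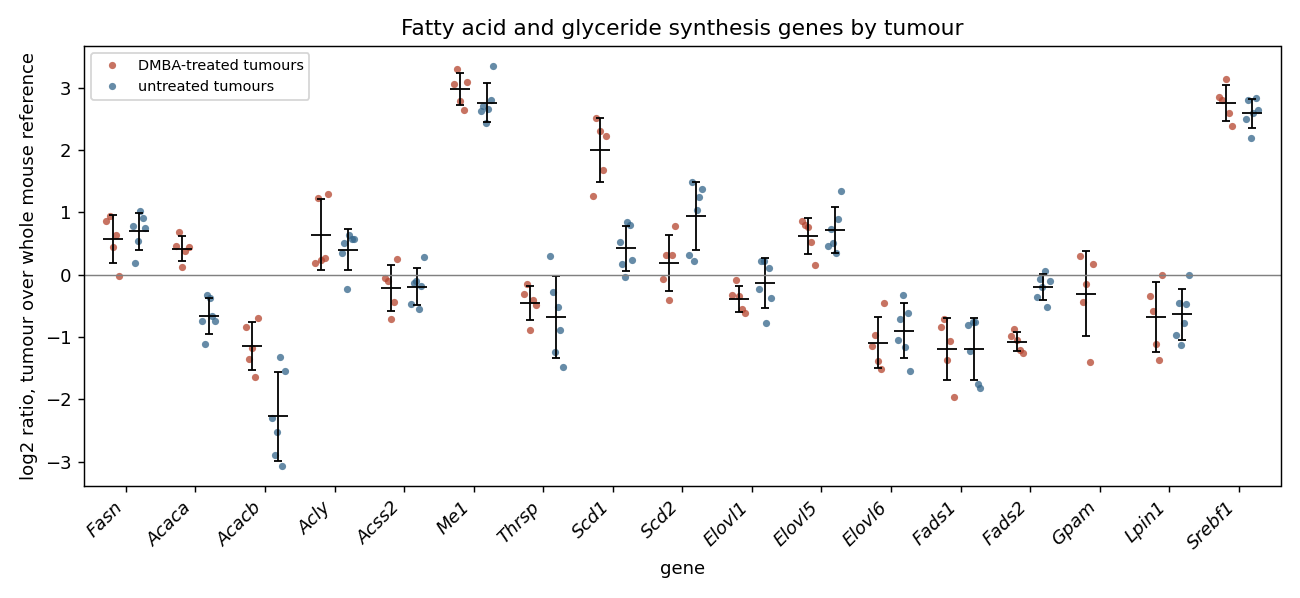
Log2 ratio of tumour over whole mouse reference (vertical axis) for each of the 17 genes of fatty acid and glyceride synthesis (horizontal axis). Each point is a tumour, DMBA-treated on the left and untreated on the right of each gene, and the black bar gives the mean with its SD. Srebf1 and Me1 lie above 2 in all 11 tumours, and Scd1, Acaca and Fads2 are the genes whose groups do not overlap. Gpam has no untreated value.

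Of the desaturases, Scd1, which makes monounsaturated fatty acids, separated the groups most. Its ratios were 1.25, 2.52, 2.30, 1.68 and 2.22 in DMBA-treated tumours 1 to 5, and -0.04, 0.38 and 0.85 as lowest, median and highest in untreated tumours. The mean was 1.99 ± 0.52 in DMBA-treated tumours (3.98-fold, limma adjusted p = 0.000157) and 0.42 ± 0.36 in untreated tumours (1.34-fold, limma adjusted p = 0.0209). Every DMBA-treated tumour was above every untreated tumour, from 1 feature of the same accession in each table. The untreated call was lost without untreated 1, 4 or 5 (adjusted p of 0.0566 to 0.0685). Scd2, its paralog in mouse, had a mean of 0.18 ± 0.45 in DMBA-treated tumours, which did not pass the test (limma adjusted p = 0.415, 95% interval -0.24 to 0.61), and was higher than the reference in untreated tumours at 0.95 ± 0.55 (limma adjusted p = 0.00164). The groups overlapped for Scd2.

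Fads1 and Fads2 encode desaturases of polyunsaturated fatty acid synthesis. Fads2 had ratios of -0.98, -0.88, -1.05, -1.20 and -1.26 in DMBA-treated tumours 1 to 5, and of -0.52 to 0.06 with a median of -0.15 in untreated tumours. It was lower than the reference in DMBA-treated tumours, at -1.08 ± 0.16 (limma adjusted p = 0.000127), and did not pass in untreated tumours, at -0.20 ± 0.21 (limma adjusted p = 0.108, 95% interval -0.42 to 0.02). No value was shared between the group ranges, and the means were 0.88 apart, with DMBA lower. Fads1 was lower to nearly the same mean, -1.19 ± 0.50 in DMBA-treated tumours and -1.19 ± 0.50 in untreated tumours, with limma adjusted p of 0.00171 for DMBA and 0.000244 for untreated.

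Of the elongases, Elovl6, which lengthens palmitate to stearate, was lower at -1.09 ± 0.41 in DMBA-treated tumours and -0.90 ± 0.44 in untreated tumours, with limma adjusted p of 0.00126 for DMBA and 0.000754 for untreated. Elovl5, which lengthens polyunsaturated fatty acids, was higher at 0.62 ± 0.29 in DMBA-treated tumours and 0.71 ± 0.37 in untreated tumours, with limma adjusted p of 0.00598 for DMBA and 0.00146 for untreated. Elovl1, an elongase of very long saturated chains, was lower in DMBA-treated tumours at -0.39 ± 0.21 (limma adjusted p = 0.0232) and did not pass in untreated tumours at -0.14 ± 0.40 (limma adjusted p = 0.419). Its DMBA call was lost without DMBA 1, 3, 4 or 5 (adjusted p of 0.0561 to 0.0775). DMBA 3 and DMBA 4 share a number in their titles, and with their mean as 1 tumour the DMBA calls of Elovl1, Lpin1 and Fdps were lost (adjusted p of 0.0588, 0.0792 and 0.0598). Lpin1, the phosphatidate phosphatase of glyceride synthesis, was lower at -0.69 ± 0.56 in DMBA-treated tumours and -0.64 ± 0.41 in untreated tumours, with limma adjusted p of 0.0284 for DMBA and 0.00433 for untreated, and the DMBA call was lost without DMBA 2, 3 or 4 (adjusted p of 0.0631 to 0.0871). Gpam, which starts glycerolipid synthesis, averaged -0.31 ± 0.68 in DMBA-treated tumours and did not pass the test (limma adjusted p = 0.328).

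In all, 7 of the 17 fatty acid genes were higher in DMBA-treated tumours, 7 were lower and 3 did not pass. Of 16 in untreated tumours, 7 were higher, 6 were lower and 3 did not pass. That is 82.4% called in DMBA-treated tumours, beside 57.8% of all genes, and 81.25% in untreated tumours, beside 60.9% of all genes. These genes were not tested as a set. The median over the list was -0.21 in DMBA-treated tumours, beside -0.02 over all genes, and -0.17 in untreated tumours, beside 0 over all genes. The DMBA median was 0.18 with the first feature of each gene, -0.03 without DMBA 4, -0.09 without DMBA 3 and -0.33 without DMBA 5, and the untreated median was -0.07 without untreated 4. Fat cells, which also express these enzymes, are part of a whole mouse and of the mammary fat pad. Of the 11 measured adipocyte markers, 0 were higher and 10 were lower in DMBA-treated tumours, and 0 and 10 in untreated tumours, the exception being Lep in both. Cidec, a lipid droplet protein, averaged -5.53 in DMBA-treated tumours and -5.66 in untreated tumours. The marker median lay between -4.42 and -3.81 over the DMBA-treated tumours and between -3.99 and -3.20 over the untreated tumours. Milk genes of the alveolar epithelium stood the other way, with 6 of 8 higher in DMBA-treated tumours and 6 of 8 higher in untreated tumours, where 1, Glycam1, was lower; Csn2, a casein, averaged 6.53 in DMBA-treated tumours and 4.08 in untreated tumours. Fibroblast markers were lower in 8 of 8 cases in DMBA-treated tumours and in 8 of 8 in untreated tumours. The part of these cells in the lipid gene ratios was not tested.

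A further list of fatty acid and glyceride genes was counted for the pathway. In DMBA-treated tumours 8 of 36 were higher (22.2%, beside 26.1% of all genes), 21 were lower (58.3%, beside 31.7% of all genes) and 7 did not pass, with a median of -1.06. In untreated tumours 9 of 35 were higher (25.7%, beside 28.8% of all genes), 20 were lower (57.1%, beside 32.1% of all genes) and 6 did not pass, with a median of -0.59. The list was not tested as a set. The strongest were Acsl4, an acyl-CoA synthetase for arachidonate, which was higher at 4.48 ± 0.28 in DMBA-treated tumours and 4.23 ± 0.52 in untreated tumours, and Mogat2, a monoacylglycerol acyltransferase known from the intestine, which was lower at -4.55 ± 0.15 in DMBA-treated tumours and -4.41 ± 0.22 in untreated tumours. Elovl4, an elongase of very long chains, was lower at -4.42 ± 0.24 in DMBA-treated tumours and -3.21 ± 0.21 in untreated tumours. Agpat4 was lower at -3.28 ± 0.29 in DMBA-treated tumours and -3.20 ± 0.18 in untreated tumours. Elovl2 was lower at -3.20 ± 0.38 in DMBA-treated tumours and -3.55 ± 0.10 in untreated tumours.

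The sterol genes were mostly close to the reference. Of the 12, 3 were higher in DMBA-treated tumours (Srebf2, Lss and Dhcr7), 2 were lower (Hmgcs1 and Fdps) and 7 did not pass. In untreated tumours 5 were higher (Srebf2, Mvk, Sqle, Lss and Dhcr7), 2 were lower (Hmgcs1 and Fdft1) and 5 did not pass. That is 41.7% called in DMBA-treated tumours, beside 57.8% of all genes, and 58.3% in untreated tumours, beside 60.9% of all genes. The median over the list was 0.11 in DMBA-treated tumours, beside -0.02 over all genes, and 0.18 in untreated tumours, beside 0 over all genes. DMBA 5 set the sign of the DMBA median, which was -0.11 without it and 0.10 to 0.19 without another tumour.

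Srebf2, the regulator, was higher at 0.50 ± 0.17 in DMBA-treated tumours and 0.71 ± 0.34 in untreated tumours, with limma adjusted p of 0.00556 for DMBA and 0.00110 for untreated. Insig1, which retains the SREBPs in the endoplasmic reticulum, was the most variable sterol gene. Its ratios were 0.20, 0.01, -0.49, -0.20 and 1.5 in DMBA-treated tumours 1 to 5, and 2.44, 0.00, -0.61, 2.48, 0.69 and 0.65 in untreated tumours 1 to 6. It averaged 0.20 ± 0.77 in DMBA-treated tumours (limma adjusted p = 0.560) and 0.94 ± 1.27 in untreated tumours (limma adjusted p = 0.0649), and neither passed; without untreated 3 the untreated mean passed, at 1.25 (adjusted p = 0.0203). DMBA 5, untreated 1 and untreated 4 were the high tumours. The SD of Insig1 lay at percentile 90.4 of all genes in the DMBA table and at percentile 99.3 in the untreated table.

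The first enzyme of the list, Hmgcs1, which makes HMG-CoA, was the lowest sterol gene. Its ratios were -1.29, -1.79, -1.45, -1.55 and -0.75 in DMBA-treated tumours 1 to 5, and -2.74, -2.24 and -1.88 as lowest, median and highest in untreated tumours. The mean was -1.36 ± 0.39 in DMBA-treated tumours (2.57-fold lower, limma adjusted p = 0.000351) and -2.26 ± 0.33 in untreated tumours (4.80-fold lower, limma adjusted p = 3.22e-07). The group ranges did not meet, and their means were 0.90 apart. In the DMBA table its 2 features of the same accession gave -1.93 and -0.80. The feature at -1.93 ran from -2.27 to -1.17 and overlapped the untreated range. The feature at -0.80 ran from -1.30 to -0.33 and did not.

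The enzymes from mevalonate to squalene were near the reference or lower. Mvk, mevalonate kinase, averaged 0.09 ± 0.53 in DMBA-treated tumours, which did not pass, and was higher at 0.29 ± 0.20 in untreated tumours (limma adjusted p = 0.0270), a call lost without untreated 1, 2 or 5 (adjusted p of 0.0625 to 0.0881). Mvd, mevalonate diphosphate decarboxylase, averaged 0.12 ± 0.24 in DMBA-treated tumours and 0.08 ± 0.27 in untreated tumours and passed in neither. Idi1, isopentenyl diphosphate isomerase, averaged -0.10 ± 0.60 in DMBA-treated tumours and -0.04 ± 0.36 in untreated tumours and passed in neither. Fdps, farnesyl diphosphate synthase, was lower in DMBA-treated tumours at -0.37 ± 0.21 (limma adjusted p = 0.0273), a call lost without DMBA 1, 2, 3 or 4 (adjusted p of 0.0558 to 0.0924), and averaged -0.20 ± 0.54 in untreated tumours, which did not pass. Fdft1, squalene synthase, averaged -0.09 ± 0.45 in DMBA-treated tumours, which did not pass, and was lower in untreated tumours at -1.02 ± 0.46 (limma adjusted p = 0.000426); the groups overlapped.

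From squalene onward, Lss and Dhcr7 were higher in both groups. Sqle, squalene epoxidase, averaged 0.24 ± 0.40 in DMBA-treated tumours, which did not pass, and was higher in untreated tumours at 0.50 ± 0.37 (limma adjusted p = 0.0105). Lss, lanosterol synthase, was higher at 1.0 ± 0.32 in DMBA-treated tumours (2.0-fold) and 0.84 ± 0.45 in untreated tumours, with limma adjusted p of 0.000870 for DMBA and 0.00126 for untreated. Cyp51, the lanosterol demethylase, averaged -0.35 ± 0.76 in DMBA-treated tumours and 0.02 ± 0.47 in untreated tumours and passed in neither. Dhcr7, which makes cholesterol in the last step, was the highest sterol gene. Its ratios were 1.40, 1.19, 0.99, 1.38 and 2.25 in DMBA-treated tumours 1 to 5, and 1.43, 1.83 and 2.18 as lowest, median and highest in untreated tumours. The mean was 1.44 ± 0.48 in DMBA-treated tumours (2.72-fold, limma adjusted p = 0.000581) and 1.86 ± 0.29 in untreated tumours (3.63-fold, limma adjusted p = 7.05e-07), with overlapping groups.

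**Figure D2:**
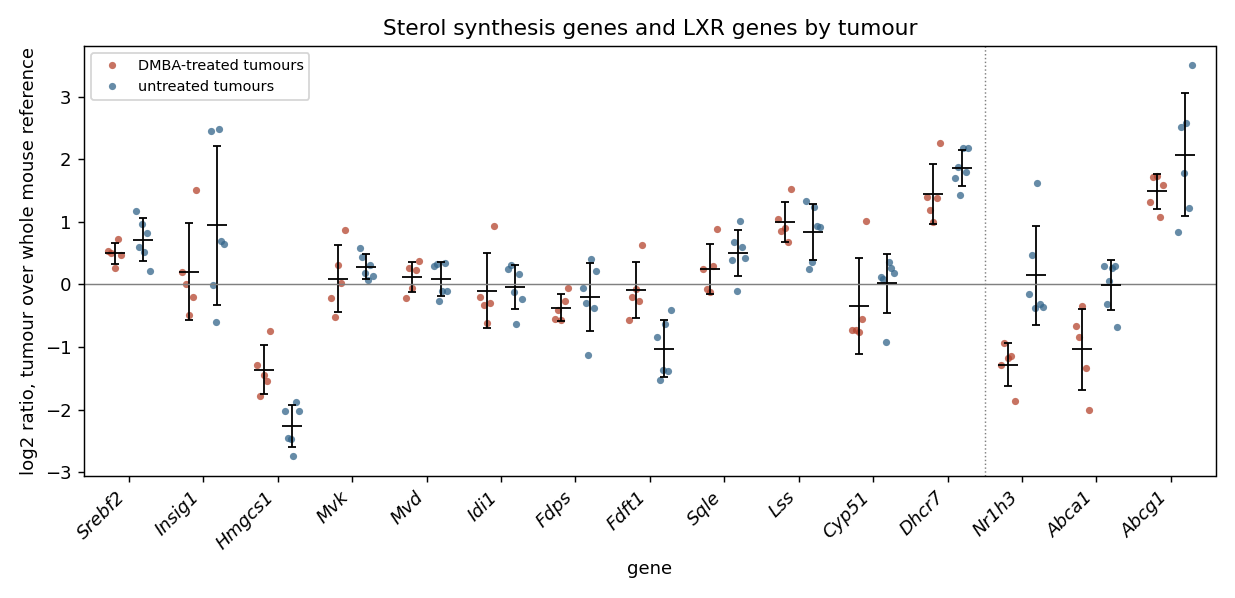
Log2 ratio of tumour over whole mouse reference (vertical axis) for the 12 sterol synthesis genes and, right of the dotted line, the 3 measured LXR genes (horizontal axis). Each point is a tumour, DMBA-treated on the left and untreated on the right of each gene, and the black bar gives the mean with its SD. Dhcr7 and Abcg1 are above 0 in all 11 tumours and Hmgcs1 is below 0 in all 11, and the Nr1h3 groups do not overlap.

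Single tumours stood apart in the sterol genes. DMBA 5 had the highest value of its group in 11 of the 12 sterol genes, all but Srebf2, and in 23.6% of all genes. The list median was -0.20, -0.13, -0.10 and -0.09 in DMBA 1 to 4 and 0.88 in DMBA 5. Cyp51 was at 1.01 in DMBA 5 and between -0.76 and -0.55 in the other 4 tumours, and Idi1 was at 0.93 in DMBA 5 and between -0.61 and -0.20 in the others. Without DMBA 5, Cyp51 was lower than the reference at -0.69 (limma adjusted p = 0.00208) and Idi1 at -0.36 (limma adjusted p = 0.0376). Leaving out the highest tumour of a gene lowers its mean in any case, so these p-values are only a description. Of the 26 array features of the sterol genes, 22 were highest in DMBA 5. Fatty acid genes did not share this order: DMBA 5 was highest in 6 and lowest in 6 of the 17, and DMBA 2 was the highest in 8, beside 27.7% of all genes.

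Among the untreated tumours the sterol genes were low in untreated 3. It had the lowest value of its group in 6 of the 12 genes, beside 16.9% of all genes, and lay below the group mean in 11 of the 12, all but Srebf2. The list median was -0.19 in untreated 3 and between 0.20 and 0.38 in the other 5 tumours. Cyp51 was at -0.93 in untreated 3 and between 0.09 and 0.35 in the others. Low values in untreated 3 were not particular to the sterol genes. Of the 16 fatty acid genes it was the lowest in 6 (37.5%) and the highest in 4, and lay below the group mean in 11. It was also the lowest in 12 of 35 further fatty acid and glyceride genes and the highest in 6. Of 18 other sterol genes it was the lowest in 6 and the highest in 0. These orders are descriptions of tumours noticed in the data, with no test.

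**Figure D3:**
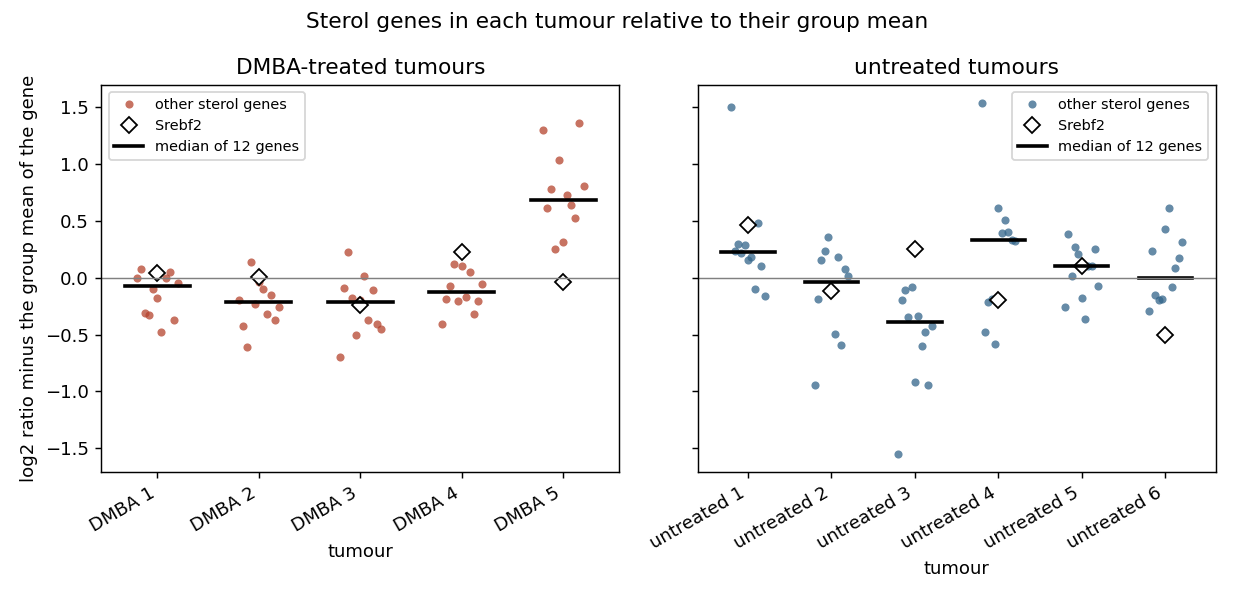
Log2 ratio minus the group mean of the gene (vertical axis) for the 12 sterol genes in each tumour (horizontal axis), DMBA-treated tumours on the left and untreated tumours on the right. Points are the other sterol genes, the open diamond is Srebf2 and the bar is the median of the 12. The points of DMBA 5 lie above 0 with Srebf2 just below it, and those of untreated 3 lie below 0 with Srebf2 above it.

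Other sterol genes counted for the pathway were mixed. In DMBA-treated tumours 5 of 19 were higher (26.3%, beside 26.1% of all genes), 7 were lower (36.8%, beside 31.7%) and 7 did not pass. The median was -0.03. In untreated tumours 3 of 18 were higher (16.7%, beside 28.8% of all genes), 5 were lower (27.8%, beside 32.1%) and 10 did not pass. The median there was -0.07. DMBA 5 was the highest tumour in 8 of these 19 genes and DMBA 2 in 7, beside 23.6% of all genes for DMBA 5 and 27.7% for DMBA 2. Ebp, a sterol isomerase, was higher at 1.21 ± 0.09 in DMBA-treated tumours and 1.41 ± 0.19 in untreated tumours. Msmo1, a methylsterol oxidase, was lower at -1.58 ± 0.46 in DMBA-treated tumours and -1.65 ± 0.44 in untreated tumours. Idi2, a paralog of Idi1 known from skeletal muscle, was lower at -2.55 ± 0.17 in DMBA-treated tumours and -1.79 ± 0.18 in untreated tumours. Tm7sf2, a sterol reductase, was lower at -1.25 ± 0.23 in DMBA-treated tumours and -1.13 ± 0.76 in untreated tumours. Lcat, the plasma enzyme that esterifies cholesterol, was lower at -0.84 ± 0.35 in DMBA-treated tumours and -2.88 ± 0.25 in untreated tumours. Npc1l1, the intestinal cholesterol importer, was lower at -2.30 ± 0.36 in untreated tumours and has no DMBA value.

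The LXR genes did not move as a block. Nr1h3, which encodes LXR alpha, had ratios of -1.29, -0.94, -1.18, -1.14 and -1.86 in DMBA-treated tumours 1 to 5, and -0.37, -0.23 and 1.62 as lowest, median and highest in untreated tumours. It was lower than the reference in DMBA-treated tumours at -1.28 ± 0.35 (2.43-fold lower, limma adjusted p = 0.000322) and did not pass in untreated tumours at 0.15 ± 0.79 (limma adjusted p = 0.635, 95% interval -0.42 to 0.72). All DMBA-treated tumours lay below all untreated tumours, of which untreated 4 was the high one.

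Abca1, which exports cholesterol to apolipoprotein A-I, had ratios of -0.66, -0.83, -0.35, -1.33 and -2.0 in DMBA-treated tumours 1 to 5, and -0.68, 0.15 and 0.30 as lowest, median and highest in untreated tumours. It was lower in DMBA-treated tumours at -1.04 ± 0.65 (limma adjusted p = 0.00871) and did not pass in untreated tumours at -0.02 ± 0.40 (limma adjusted p = 0.934, 95% interval -0.34 to 0.31). The groups overlapped through the lowest untreated tumour, untreated 6. Abcg1, which exports cholesterol to lipoprotein particles, stood the other way: its ratios were 1.32, 1.72, 1.73, 1.08 and 1.59 in DMBA-treated tumours 1 to 5 and 0.83, 2.14 and 3.50 as lowest, median and highest in untreated tumours. It was higher at 1.49 ± 0.28 in DMBA-treated tumours (2.81-fold, limma adjusted p = 8.13e-05) and 2.07 ± 0.98 in untreated tumours (4.20-fold, limma adjusted p = 0.000332). All 11 tumours were above the reference, and the groups overlapped.

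Macrophages also express Nr1h3 and both transporters. Of the macrophage markers, 2 of 8 were higher in DMBA-treated tumours (Cd14 and Mpeg1), 2 were lower (Mrc1 and Marco) and 4 did not pass, and in untreated tumours 4 of 9 were higher, 3 were lower and 2 did not pass. The marker median lay between -0.51 and 0.22 over the DMBA-treated tumours, lowest in DMBA 5, and between -0.10 and 0.65 over the untreated tumours. The part of macrophages in the LXR ratios was not tested. Of other LXR partners and targets in DMBA-treated tumours, 5 of 18 were higher (27.8%, beside 26.1% of all genes), 8 were lower (44.4%, beside 31.7%) and 5 did not pass. In untreated tumours 6 of 18 were higher (33.3%, beside 28.8% of all genes), 8 were lower (44.4%, beside 32.1%) and 4 did not pass. This list was not tested as a set. The lowest in both groups were Rxrg, a retinoid X receptor, at -5.02 ± 0.33 in DMBA-treated tumours and -4.28 ± 0.95 in untreated tumours, the sterol transporter Abcg5 at -3.72 ± 0.25 (DMBA) and -3.45 ± 0.19 (untreated), the lipoprotein lipase gene Lpl at -3.25 ± 0.35 (DMBA) and -3.71 ± 0.26 (untreated), and its cofactor Apoc2 at -3.01 ± 0.18 (DMBA) and -3.72 ± 0.14 (untreated).

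Set side by side, 3 of the 31 genes measured in both tables stood apart, meaning that no tumour values overlapped and the means were at least 1 apart. They were Scd1, where DMBA-treated tumours were 1.57 higher, Acaca, where they were 1.08 higher, and Nr1h3, where they were 1.43 lower on the log2 scale. That is 9.68% of the 31, where 8.34% of the 16351 genes in both tables stood apart, 3.27% with DMBA higher and 5.06% with DMBA lower. Groups without overlap at any distance were seen for 5 of the 31 (16.1%), the other two being Fads2 and Hmgcs1, beside 18.2% of all genes. Both shares are near those of all genes, so they are no result about the lipid genes as a set. Acaca did not stand apart without untreated 2. Fdft1 and Abca1 joined the list without untreated 6, which made it 5 genes. Without DMBA 1, Fdft1 joined it, and without DMBA 2, Hmgcs1 joined it, which made it 4 genes in each case.

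The DMBA table held 61 features for the 32 genes, and 18 genes had several. For 8 of the 18 the feature means had different signs, and the widest ranges were those of Acacb (2.61), Acss2 (1.39), Lss (1.33) and Dhcr7 (1.27). The untreated table held 33 features, and its 2 genes with several features, Acaca and Me1, had features of 1 sign each. In the DMBA table the range of feature means exceeded the gene's SD over tumours for all of the 18 genes but Lpin1, Idi1, Fdft1 and Fasn. For Acacb that SD was 0.38.

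**Figure D4:**
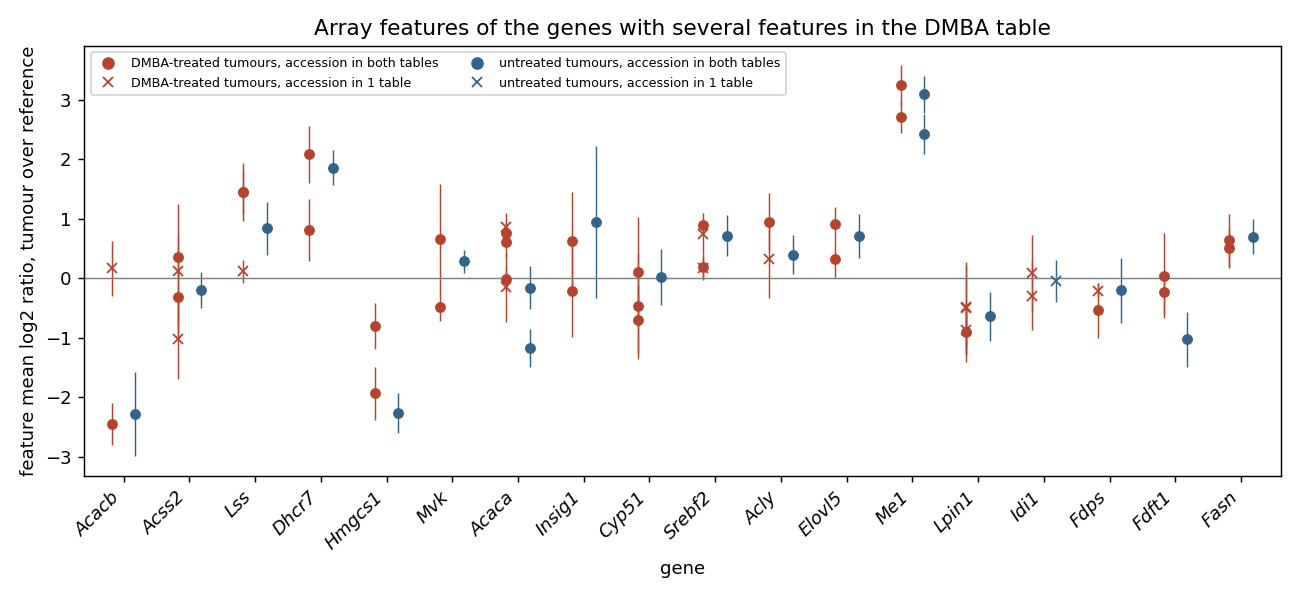
Mean log2 ratio of each array feature (vertical axis) for the 18 genes with several features in the DMBA table (horizontal axis), with the SD over tumours as a line. DMBA-treated tumours are on the left and untreated tumours on the right of each gene; circles are features whose accession is in both tables and crosses those in 1 table. The Acacb features at -2.45 and 0.17 in DMBA-treated tumours are the farthest apart.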

How the data were processed

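The deposited values are log2 ratios from 2-colour arrays, in 2 value tables, 1 for the 5 DMBA-treated tumours and 1 for the 6 untreated tumours. The sources used here do not give the authors' background correction, normalization or genome build. No log base is given, and base 2 was taken from the range of the values. Signal behind a ratio is unknown, so the number of arrays limits the precision. Gene names came from the platform's annotation, updated by gene identifier in RefSeq (GRCm38.p6), and a gene's features were averaged on each array; a gene was kept with values on 4 or more arrays.

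Within its table, each group's mean ratio was set against 0 by limma (version 3.58.1, R 4.3.3; lmFit and eBayes), two-sided, with Benjamini-Hochberg adjustment over all genes of the table and a threshold of 0.05. The fit was tested on simulated data. Means carry SDs over tumours, n = 5 for DMBA and n = 6 for untreated. Tumour numbers follow accession order and only name a tumour. The series names 19 samples, and those other than these 11 are not analysed here. All 33 genes are named; of each further pathway list, up to 4 called genes per group with the largest mean were named, and other markers named were chosen as examples after their values were seen. The genes and lists were chosen with earlier results of these data known. Alternatives were other feature summaries, array scalings, zeros as missing, a test against 1.5-fold, robust eBayes, features with shared accessions, genes with 1 feature, DMBA 3 and DMBA 4 averaged, and leaving out each tumour.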

Additional observations from a re-analysis of the deposited data

Results flagged for a closer look

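Of 63 pairs of a gene and a group, 4 held a tumour far from the others by Dixon's test at the 95% level; chance alone gives about 5% of pairs. Idi1 was at 0.931 in DMBA 5, with the other DMBA-treated tumours between -0.61 and -0.20. Cyp51 was at 1.01 in DMBA 5, with the others between -0.76 and -0.55. Cyp51 was at -0.925 in untreated 3, with the other untreated tumours between 0.09 and 0.35. Acly was at -0.232 in untreated 3, with the others between 0.35 and 0.64. Averaged over its features, Acaca was above the reference in every DMBA-treated tumour and below it in every untreated tumour, with means 1.08 apart. Single features did not all keep these signs. A feature in the DMBA table ran from -0.316 to 0.24, and a feature in the untreated table from -0.595 to 0.417. The difference between the groups was not tested, since treatment and array design cannot be told apart.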

How the results depend on the processing

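Of the values of single genes recomputed under the alternatives, 738 kept direction and call, 61 lost the call, 5 gained it and 15 changed sign. Against 1.5-fold in place of 0, the called genes numbered 12 in DMBA-treated tumours (6 higher, 6 lower) and 8 in untreated tumours (4 higher, 4 lower), because this test asks for a larger difference. Over all genes, the 1.5-fold test called 1611 higher and 3471 lower of 19087 in the DMBA table. It called 1295 higher and 2761 lower of 16887 in the untreated table. Leaving out each tumour gave 17 to 22 called genes in DMBA-treated tumours, 9 to 11 higher and 7 to 12 lower, with 7 lower both without DMBA 3 and without DMBA 4. Over all 19087 genes, the same fits called 4275 to 4749 higher and 5517 to 5911 lower. Genes standing apart numbered 2 to 5 when each tumour was left out, and 5 with the first feature of each gene, which added Acacb and Hmgcs1. With the first feature, the fatty acid median in DMBA-treated tumours was 0.18 in place of -0.21, Acacb turned to 0.17 and lost its call (adjusted p = 0.484), Acss2 turned to 0.36 and Idi1 to 0.087, Acly and Fdps lost their DMBA calls (adjusted p of 0.299 and 0.137), and Cyp51 was called lower at -0.69; the features themselves differ. The other changes of sign came from leaving out a tumour and were of means that did not pass the test either way. In DMBA-treated tumours the means ran from -0.12 (without DMBA 5) to 0.38 for Insig1, from -0.10 (without DMBA 5) to 0.24 for Mvk, from -0.36 to 0.023 (without DMBA 3) for Idi1, and from -0.28 to 0.025 (without DMBA 1) for Fdft1; of these, only Idi1 without DMBA 5 passed. In untreated tumours they ran from -0.051 to 0.20 for Cyp51, below 0 without untreated 1, 4, 5 or 6, from -0.115 to 0.074 (without untreated 4) for Idi1, from -0.15 (without untreated 4) to 0.25 for Nr1h3, and from -0.078 to 0.12 for Abca1, above 0 without untreated 2 or 6. No paired analysis was made because the labels do not pair a DMBA-treated tumour with an untreated one. The tumour numbers follow accession order and only name the tumours. Signal over background was not known, so it cannot be said which ratios near 0 were limited by dim features.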
